A study of Mus musculus with 12 samples.

Results

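Nos2, Il1rn and Ptgs2 are 3 of the 9621 genes listed for RAW264 cells, a mouse macrophage line, whose mRNA and ribosome footprints were sequenced in 12 libraries. They were chosen by name, with earlier results of these data in view: the footprint difference between LPS + DEX and LPS for Nos2 and Il1rn, and the mRNA difference between LPS and basal for Ptgs2. Those contrasts are therefore given as descriptions for all 3 genes, with no test. The same holds for a gene's other contrasts that use the libraries it was chosen on: footprints of Nos2 and Il1rn against basal, mRNA of Ptgs2 in every comparison, and all differences between the assays. The files identify the genes as ENSMUSG00000020826 (Nos2), ENSMUSG00000026981 (Il1rn) and ENSMUSG00000032487 (Ptgs2).

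The cells were untreated (basal), treated for 30 min with 100 ng/ml lipopolysaccharide (LPS, a component of the outer membrane of Gram-negative bacteria), or treated with LPS together with the synthetic glucocorticoid dexamethasone (DEX, 10 µM) over the same time. All cells, basal ones included, received 100 µg/ml cycloheximide before extraction, which stalls ribosomes on their mRNA. Poly(A) mRNA and ribosome-protected fragments (RPF, here also footprints) were each sequenced in 2 independent biological replicates per treatment. The model is a single cell line, and the study has no group with DEX alone.

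NOS2, the inducible nitric oxide synthase, makes nitric oxide from arginine. IL1RN is the interleukin 1 receptor antagonist: it occupies the receptor without signalling and so opposes interleukin 1. PTGS2, also called COX-2, catalyses the committed step of prostaglandin synthesis from arachidonic acid. All 3 are textbook LPS-responsive genes of macrophages, induced downstream of the receptor TLR4, and glucocorticoids acting through the glucocorticoid receptor are known to restrain much of this program.

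Values are reads scaled to the depth of the library (CPM), with no scaling by gene length, so levels are compared between treatments and assays of 1 gene and not between genes. The mRNA libraries held 1475120 to 2529666 reads and the RPF libraries 821946 to 1833560, the 2 RPF LPS libraries being the shallowest. Of 10 macrophage markers, 9 are listed, with none at 0 and with summed levels of 4090 to 5165 CPM in mRNA and 5403 to 6097 CPM in RPF libraries. Of 16 markers of other cell types only the keratin Krt7 is listed, at 1108 CPM in mRNA basal replicate 1 and at 0 to 1.98 CPM in the other mRNA libraries. In that library the 3 genes lay close to their values in mRNA basal replicate 2 (Nos2 5.42 and 4.87 CPM, Il1rn 57.6 and 68.7 CPM, Ptgs2 4.07 and 4.33 CPM). Without it no mRNA difference of the 3 genes from basal changed sign: for LPS they were -0.07 (Nos2), 0.10 (Il1rn) and 2.09 (Ptgs2) on the log2 scale, and for LPS + DEX 0.53, -0.71 and 1.90. Fewer responding cells and less RNA per cell cannot be told apart in such bulk libraries.

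The RefSeq promoter windows of the genes, 250 bases before to 50 after an annotated start (GRCm38.p6), are shown because LPS acts on these genes in part through their promoters and because Il1rn has several starts. Windows were found for Ptgs2 and Il1rn. Each gene has 1 value per library in the deposited files, so the starts of Il1rn cannot be told apart there. The first window is that of Ptgs2 (chr1:150099781-150100080, plus strand). The others are the most upstream and the most downstream of 3 Il1rn windows (chr2:24336610-24336909 and chr2:24345121-24345420, plus strand). Capitals mark letters that match a searched motif on either strand.
Ptgs2: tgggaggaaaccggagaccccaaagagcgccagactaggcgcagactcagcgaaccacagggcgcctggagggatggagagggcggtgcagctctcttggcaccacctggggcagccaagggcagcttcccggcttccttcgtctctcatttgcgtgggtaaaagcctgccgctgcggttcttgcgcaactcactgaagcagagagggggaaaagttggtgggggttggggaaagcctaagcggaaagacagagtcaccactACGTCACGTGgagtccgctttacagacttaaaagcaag
Il1rn upstream start: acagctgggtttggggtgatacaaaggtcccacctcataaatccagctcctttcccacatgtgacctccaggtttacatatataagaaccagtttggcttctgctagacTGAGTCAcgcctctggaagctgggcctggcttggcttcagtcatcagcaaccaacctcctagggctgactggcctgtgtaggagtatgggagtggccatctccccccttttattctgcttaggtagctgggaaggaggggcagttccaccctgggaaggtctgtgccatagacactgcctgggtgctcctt
Il1rn downstream start: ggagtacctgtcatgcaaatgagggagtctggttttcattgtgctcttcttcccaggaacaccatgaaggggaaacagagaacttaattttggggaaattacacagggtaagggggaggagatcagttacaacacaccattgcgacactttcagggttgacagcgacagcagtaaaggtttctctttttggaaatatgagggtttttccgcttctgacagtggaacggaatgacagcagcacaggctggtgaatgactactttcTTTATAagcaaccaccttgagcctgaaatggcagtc

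In the Ptgs2 window the capitals are a CRE core (TGACGT, here on the minus strand, starting 13 bases after the annotated start) that overlaps an E-box (CACGTG, starting at base 17). In 32851 windows of the same length, 7.51% hold that CRE core and 7.15% that E-box. The upstream Il1rn window holds an AP-1 site (TGANTCA, in 7.81% of windows) 141 bases before the start, and the downstream one holds TATAAA on the minus strand (in 13.6% of windows) at base 15. The NF-kB consensus (in 4.51% of windows) and the glucocorticoid receptor motif AGAACA (in 19% of windows) have no match in the 4 windows of these genes. A match or its absence describes the letters of these windows only.

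Nos2 footprints had group means from 3.42 to 40.6 CPM, over an mRNA of at most 7.91 CPM in any library. Its footprints measured 19.1 and 8.55 CPM in basal cells (25 and 13 reads, replicates 1 and 2). After LPS they measured 28.9 and 52.3 CPM (24 and 43 reads). With LPS + DEX they measured 3.02 and 3.82 CPM (5 and 7 reads). Both LPS libraries thus lay above both basal libraries, and both LPS + DEX libraries lay below them, with no overlap between the groups. With 2 libraries in each group, a lack of overlap is a weak sign of a difference, here and below. The exact Poisson 95% interval, which covers counting error alone, was 12.3 to 28.2 CPM for basal replicate 1 and 18.5 to 43.1 CPM for LPS replicate 1, so these libraries overlap within counting error. For LPS + DEX replicate 2, the higher of its group, it reached up to 7.87 CPM. For basal replicate 2 it was 4.55 to 14.6 CPM, so these libraries overlap within counting error too.

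Nos2 mRNA measured 5.42 and 4.87 CPM in basal cells (8 and 9 reads). It measured 5.91 and 3.51 CPM after LPS (10 and 8 reads), and 7.91 and 7.09 CPM with LPS + DEX (20 and 16 reads). The basal and LPS values overlap, and the LPS + DEX values are the highest of the 6. At this depth the transcript is only just sampled: pooled over the replicates, the 95% intervals were 2.98 to 8.19 CPM for basal, 2.69 to 7.17 CPM for LPS and 5.27 to 10.4 CPM for LPS + DEX. The list of genes is also selective. Each listed gene reaches a deposited value (CPM + 1) of 16 in at least 1 library, and Nos2 reaches it in 3 RPF libraries (basal replicate 1 and both LPS libraries) and in no mRNA library.

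Il1rn was sampled much better, with 82 to 225 reads in each library. Footprints of this antagonist measured 116 and 148 CPM in basal libraries, 188 and 192 CPM after LPS, and 64.1 and 55.6 CPM with LPS + DEX. The order was the same as for Nos2, LPS above basal and basal above LPS + DEX, and no 2 groups overlap. Its mRNA measured 57.6 and 68.7 CPM in untreated cells and 47.4 and 36.3 CPM with LPS + DEX, but 113 and 47.9 CPM in the LPS replicates. The LPS libraries thus span the basal ones, and their counting intervals (97.4 to 130 and 39.3 to 57.8 CPM) do not overlap, so their spread is wider than counting error.

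Ptgs2 differed from both in that its LPS and LPS + DEX values lay together. Its mRNA measured 4.07 and 4.33 CPM in basal cells (6 and 8 reads), 20.1 and 23.3 CPM after LPS (34 and 53 reads), and 17.8 and 19.9 CPM with LPS + DEX (45 and 45 reads). Its footprints measured 17.6 and 15.8 CPM in basal cells (23 and 24 reads), 28.9 and 38.9 CPM after LPS (24 and 32 reads), and 41.1 and 36 CPM with LPS + DEX (68 and 66 reads). In both assays the basal libraries were the lowest. Footprints with LPS and with LPS + DEX overlap, and mRNA with LPS + DEX lay just under mRNA with LPS.

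**Figure D1:**
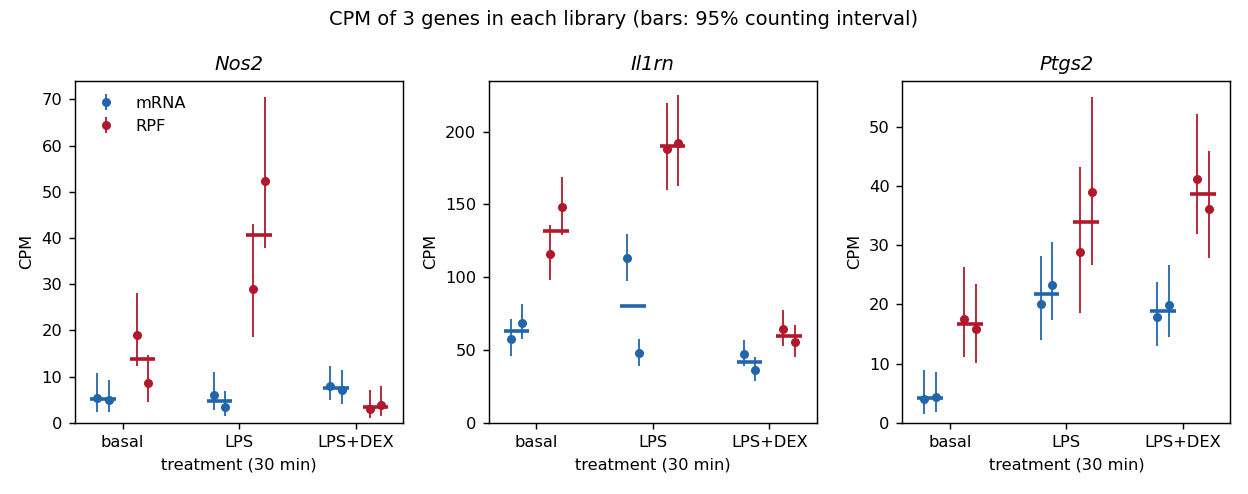
CPM of Nos2, Il1rn and Ptgs2 (y axis, from 0, a scale of its own for each gene) in the 2 libraries of each treatment (x axis), with mRNA in blue and RPF in red, horizontal lines at group means and bars for the 95% Poisson interval of each library. Nos2 footprints average 40.6 CPM under LPS against 3.42 CPM when DEX was present, while its mRNA is at most 7.91 CPM in all 6 libraries.

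The footprint comparison of LPS with basal cells asks whether ribosomes were gained on these mRNAs within 30 min. Footprints of Ptgs2, the one of the 3 genes tested here, rose, and those of Nos2 and Il1rn were higher in both LPS libraries than in both basal ones. Of the 8847 genes tested, 3.3% were called higher and 4.32% lower (292 and 382 genes, or 378 and 279 with median-of-ratios scaling). Ptgs2 rose from 16.7 ± 1.25 to 33.9 ± 7.07 CPM (mean ± SD of 2 libraries), by 0.97 ± 0.24 on the log2 scale (± SE; limma, adjusted p = 0.0264), the place 231 from the highest. Its call was lost without RPF LPS replicate 2 (0.76) or basal replicate 2 (0.90), with limma-voom (1.01, adjusted p = 0.0535), without a filter on low values (adjusted p = 0.0785) and with only the 4 libraries compared (adjusted p = 0.0834). The counting intervals of Ptgs2 in RPF basal replicate 1 (11.1 to 26.3 CPM) and RPF LPS replicate 1 (18.5 to 43.1 CPM) overlap. Ptgs2 was chosen on its mRNA in this same comparison and not on its footprints, so its test is not fully independent of that choice. The RPF LPS libraries took part in the choice of Nos2 and Il1rn, so the differences of these genes are descriptions. Nos2 measured 13.8 ± 7.45 CPM in basal and 40.6 ± 16.5 CPM in LPS-treated cells, a log2 difference of 1.53 ± 0.43 that ranged from 0.99 to 2.06 with 1 library left out. For Il1rn the means were 132 ± 22.6 and 190 ± 2.93 CPM, a log2 difference of 0.53 ± 0.15 that was 0.36 without RPF basal replicate 1 and 0.71 without basal replicate 2.

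The mRNA comparison of LPS with basal is described and not tested. Ptgs2 showed a log2 difference of 2.12 ± 0.31 (means of 4.2 and 21.7 CPM, 5.17 times as high after LPS), the place 70 from the top among 9277 genes. Nos2 measured -0.14 ± 0.51, with a sign that turned without mRNA LPS replicate 2 (0.17). With only the groups compared, Nos2 mRNA did not pass the filter on low values, so that setting gave no value. Il1rn measured 0.22 ± 0.37, but -0.39 without mRNA LPS replicate 1 and -0.04 with median-of-ratios scaling. The median over all genes was 0.26 in this comparison, and that scaling moves it to 0.01. For Nos2 and Il1rn the higher footprints after LPS thus stand beside mRNA differences smaller than their errors, and for Ptgs2 the mRNA difference was the larger of the 2.

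Comparing LPS + DEX with basal cells gives the net state after stimulus and glucocorticoid together. It uses the same basal libraries as the comparison of LPS with basal. Footprints of Ptgs2 rose, while those of Nos2 and Il1rn were lower in both LPS + DEX libraries than in both basal ones, and 1.77% of the 8847 genes were called higher and 2.86% lower (157 and 253 genes, or 198 and 186 with median-of-ratios scaling). Ptgs2 footprints rose from 16.7 ± 1.25 to 38.6 ± 3.63 CPM (1.16 ± 0.24 on the log2 scale, limma, adjusted p = 0.0123). This call was lost without RPF LPS + DEX replicate 1 (1.07) or replicate 2 (1.26), and without a filter (adjusted p = 0.0662). For Nos2 and Il1rn the RPF LPS + DEX libraries are those whose low values entered the choice of the genes, so no test is given. Il1rn measured 132 ± 22.6 CPM in basal cells and 59.9 ± 6 CPM with LPS + DEX, a log2 difference of -1.12 ± 0.15 (-1.29 to -0.95 with 1 library left out). Nos2 measured 13.8 ± 7.45 and 3.42 ± 0.561 CPM, a log2 difference of -1.65 ± 0.43 that was -1.12 without RPF basal replicate 1 and -2.19 without basal replicate 2.

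In mRNA, Ptgs2 measured 4.2 ± 0.186 CPM in basal cells and 18.9 ± 1.52 CPM with LPS + DEX, a log2 difference of 1.93 ± 0.31 that is described and not tested, since the mRNA basal libraries entered its choice. It ranged from 1.85 to 2.01 with 1 library left out. Of 9277 genes 18.5% were called higher here and 4.23% lower (1714 and 392 genes, or 720 and 826 with median-of-ratios scaling), so a rise in mRNA was common in this comparison. Il1rn measured -0.59 ± 0.37 (63.2 ± 7.87 and 41.9 ± 7.85 CPM, limma, adjusted p = 0.28) and Nos2 0.47 ± 0.51 (5.15 ± 0.39 and 7.5 ± 0.578 CPM, limma, adjusted p = 0.534). Neither passed. Their libraries do not overlap between the groups, which with 2 libraries in each can easily arise without a difference. The 95% intervals of these log2 differences, -1.45 to 0.27 for Il1rn and -0.72 to 1.65 for Nos2, are wide for both. With median-of-ratios scaling the differences were -0.88 for Il1rn and 0.22 for Nos2.

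Comparing LPS + DEX with LPS sets LPS-treated cells that also received the glucocorticoid beside those that did not. In footprints this contrast took part in the choice of Nos2 and Il1rn, and it is described without a test for all 3 genes. Nos2 was at 40.6 ± 16.5 CPM with LPS alone and at 3.42 ± 0.561 CPM with DEX added, a log2 difference of -3.18 ± 0.43 and the place 27 from the lowest of 8847 genes. Il1rn measured 190 ± 2.93 and 59.9 ± 6 CPM (-1.65 ± 0.15, place 123 from the lowest). Ptgs2 measured 33.9 ± 7.07 and 38.6 ± 3.63 CPM (0.19 ± 0.24, with a 95% interval of -0.32 to 0.71), and the sign turned without RPF LPS replicate 1 (-0.02). With any 1 of the 4 libraries left out, the difference ranged from -3.60 to -2.77 for Nos2 and from -1.76 to -1.55 for Il1rn. In this comparison 3.14% of genes were called higher and 3.55% lower.

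In mRNA the same contrast was tested for Nos2 and Il1rn, and neither passed. Il1rn measured -0.81 ± 0.37 (80.4 ± 46 and 41.9 ± 7.85 CPM), the place 35 from the lowest of 9277 genes, with a 95% interval of -1.67 to 0.05 (limma, adjusted p = 1). That value rests on mRNA LPS replicate 1, without which it was -0.20, against -1.42 without LPS replicate 2. Nos2 measured 0.60 ± 0.51, from 4.71 ± 1.69 to 7.5 ± 0.578 CPM, opposite in sign to its footprints (interval -0.58 to 1.79, limma, adjusted p = 1), and 0.30 without LPS replicate 2 or 0.91 without LPS replicate 1. Ptgs2, described only, measured -0.19 ± 0.31. Limma called 0% of genes higher and 0% lower here (183 had an unadjusted p under 0.05), and 0 were called by limma-voom fitted to the recovered reads, with 209 under 0.05 before adjustment. Missing the threshold in a comparison with no calls at all does not show that these mRNAs were equal.

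**Figure D2:**
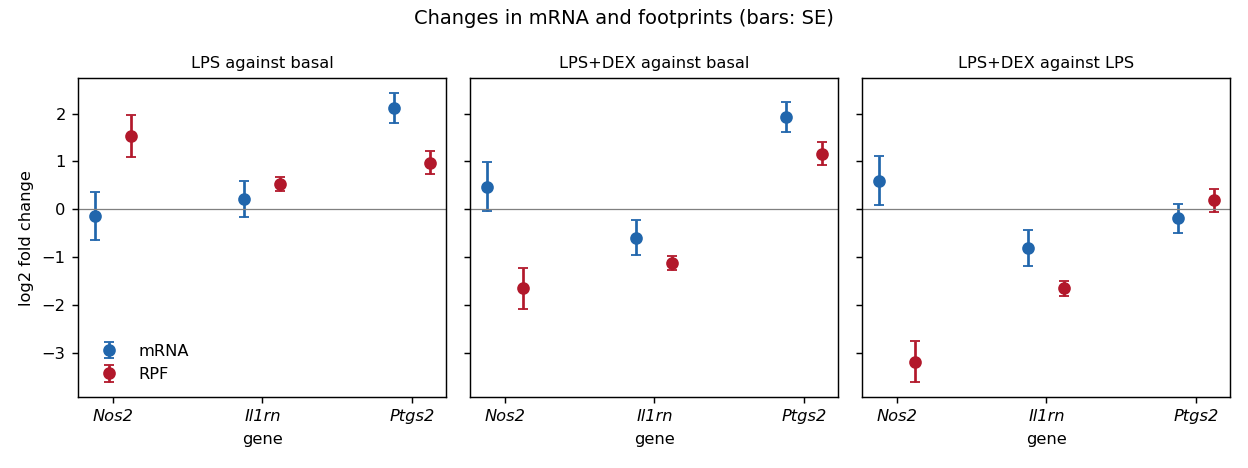
Log2 fold changes (y axis) of the 3 genes (x axis) in mRNA (blue) and footprints (red) for each comparison, with bars for the SE from limma. The red points of Nos2 and Il1rn lie above 0 for LPS against basal (1.53 and 0.53) and below 0 in the other panels, while those of Ptgs2 stay at 0.19 or above.

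Setting footprints beside mRNA in each treatment shows how the ribosome load relative to the transcript moved, a ratio called translational efficiency (TE). For Nos2 the footprint CPM was 2.68 times the mRNA CPM in basal cells, 8.62 times after LPS and 0.456 times with LPS + DEX. On the log2 scale these were 1.17 ± 0.47, 2.84 ± 0.47 and -0.95 ± 0.47 (SE), where the medians over all 9412 genes were 0.21, -0.06 and -0.08. The RPF and mRNA libraries of Nos2 do not overlap in any treatment, nor do those of Il1rn and Ptgs2. Differences between the assays were common over the 9412 genes. In basal cells limma called 3148 genes higher in RPF than in mRNA and 1628 lower. These counts were 2337 and 2550 after LPS, and 2241 and 2559 with LPS + DEX. With LPS + DEX the Nos2 footprints were the lower of the 2. Since Nos2 is listed through its footprints and not its mRNA, a high ratio in basal or LPS-treated cells is partly a condition of its listing.

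Il1rn had more footprints than mRNA throughout: 2.09 times in basal cells, 2.37 times after LPS and 1.43 times with LPS + DEX (log2 1.05, 1.36 and 0.51, each ± 0.30). For Ptgs2 the ratio was highest in basal cells, at 3.97 times, and was 1.56 times after LPS and 2.04 times with LPS + DEX (log2 1.76, 0.61 and 0.99, each ± 0.26). The 3 genes therefore differ in the treatment with the highest ratio, which is LPS for Nos2 and Il1rn and basal for Ptgs2. The Il1rn ratios in basal and LPS-treated cells differ by less than the error of their difference (0.31 ± 0.42). The basal ratio of Ptgs2 rests on 14 mRNA reads, pooled over its libraries (95% interval 2.3 to 7.07 CPM).

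**Figure D3:**
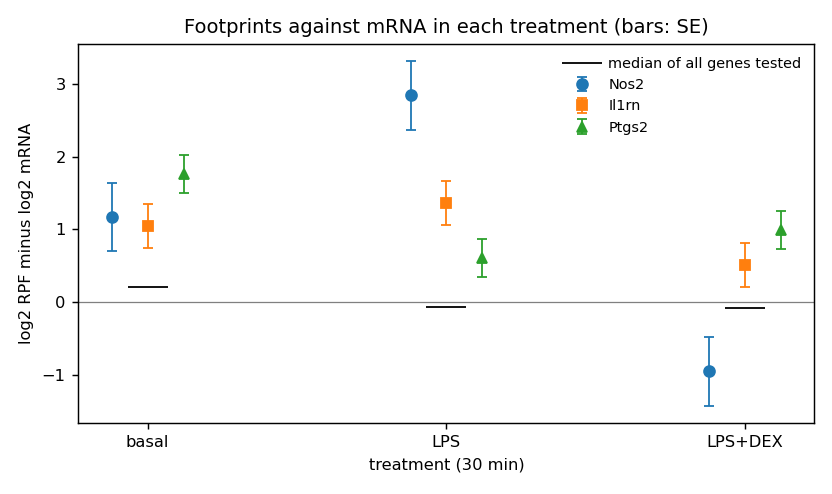
Log2 RPF minus log2 mRNA (y axis) of Nos2, Il1rn and Ptgs2 in each treatment (x axis), with SE bars, and short black lines at the median of all genes tested. Nos2 moves from 2.84 with LPS to -0.95 with LPS + DEX, and the other genes stay between 0.51 and 1.76.

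The differences of TE are descriptions too, since each holds libraries that entered the choice of the genes. Between LPS + DEX and basal, TE of Nos2 differed by -2.12 ± 0.66 on the log2 scale, where 12.2% of all genes were called lower and 2.68% higher (1149 and 252 genes, or 356 and 507 with median-of-ratios scaling). This value ranged from -2.66 to -1.58 with 1 library left out. TE of Il1rn differed by -0.53 ± 0.42 and that of Ptgs2 by -0.77 ± 0.36. Median-of-ratios scaling gave -1.83 for Nos2, -0.20 for Il1rn and -0.48 for Ptgs2, and Il1rn measured -0.34 without mRNA LPS + DEX replicate 1. The median over all genes was -0.34, and -0.02 with median-of-ratios scaling.

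For LPS + DEX against LPS the TE differences were -3.79 ± 0.66 for Nos2 (place 14 from the lowest of 9412 genes), -0.84 ± 0.42 for Il1rn and 0.38 ± 0.36 for Ptgs2. The Il1rn value was -1.45 without mRNA LPS replicate 1 and -0.23 without LPS replicate 2. For LPS against basal they were 1.67 ± 0.66, 0.31 ± 0.42 and -1.15 ± 0.36 in the same order of genes. The median over all genes was -0.34 in that comparison, and -0.06 with median-of-ratios scaling. The Nos2 value of LPS + DEX against LPS rests on 12 footprint reads and 36 mRNA reads in the LPS + DEX libraries, and on 67 and 18 in the LPS libraries.

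**Figure D4:**
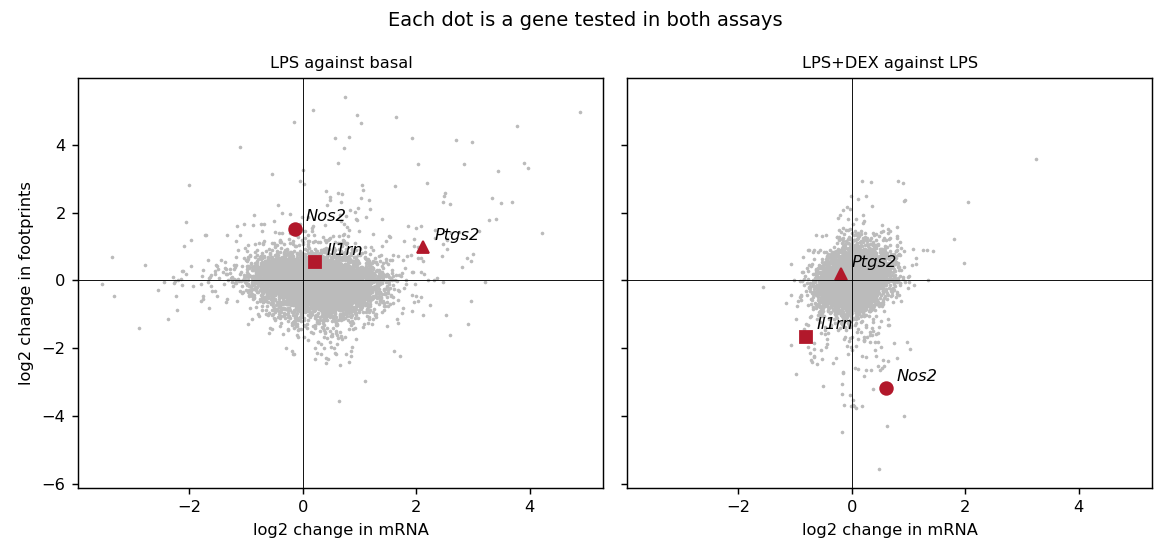
Log2 change in mRNA (x axis) against log2 change in footprints (y axis) for each gene tested in both assays (grey dots), with the 3 genes in red, for LPS against basal (left) and LPS + DEX against LPS (right). On the right Nos2 lies at 0.60 and -3.18 and Il1rn at -0.81 and -1.65, while Ptgs2 lies near the centre at -0.19 and 0.19.

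Calls among the enzymes and transporters around Nos2 were few, and footprint calls were also rare over all genes. Of 18 genes of nitric oxide and arginine metabolism 11 are listed, Arg1, Arg2 and Slc7a2 not among them. In footprints 0 of 11 passed in any comparison. Over all genes, 3.3% were called higher and 4.32% lower in footprints for LPS against basal. These shares were 1.77% and 2.86% for LPS + DEX against basal, and 3.14% and 3.55% for LPS + DEX against LPS. A count of 0 of 11 is thus near the share over all genes. In mRNA 0 of 11 passed for LPS + DEX against basal (all genes, 18.5% higher and 4.23% lower). The median footprint difference of the 11 genes was -0.20 for LPS against basal and 0.08 for LPS + DEX against LPS (all genes, -0.07 and 0.02). In mRNA after LPS 2 rose and 1 fell, where 9.03% of all genes were called higher and 1.68% lower (838 and 156 genes, or 184 and 317 with median-of-ratios scaling). Over all genes the 994 calls of this comparison became 13 or 7 without mRNA LPS replicate 1 or 2. The arginine importer Slc7a1 rose by 0.97 ± 0.24, from 23 and 22.7 CPM to 49.1 and 42.6 CPM (limma, adjusted p = 0.0433). The polyamine enzyme Odc1 rose by 0.45 ± 0.12, just past the threshold (limma, adjusted p = 0.0498). The median over all genes was 0.26, or 0.01 with median-of-ratios scaling. Gchfr, which restrains synthesis of the cofactor tetrahydrobiopterin that NOS2 needs, measured 42 and 42.2 CPM in basal cells and 24.2 and 22.4 CPM after LPS. It fell by 0.83 ± 0.20 (limma, adjusted p = 0.0433). Slc7a1 also had a lower TE with LPS + DEX than in basal cells (-1.14 ± 0.27, limma, adjusted p = 0.0143). It was 1 of 11 called lower there, where 12.2% of all genes were.

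Around Il1rn, 13 of 25 genes of the interleukin 1 system are listed, and the cytokines Il1a and Il1b and the receptor Il1r1 are not among them. In footprints Il18bp alone was past limma's threshold. It was 1 of 13 higher for LPS against basal (all genes, 3.3%). For LPS + DEX against LPS it was 1 of 13 lower (all genes, 3.55%). Il18bp encodes the binding protein that neutralises interleukin 18, so it is, like Il1rn, a secreted antagonist of a cytokine of this family. Its footprints measured 2.29 and 0.658 CPM in basal cells (3 and 1 reads), 21.7 and 15.8 CPM after LPS (18 and 13 reads) and 2.42 and 0.545 CPM with LPS + DEX (4 and 1 reads), and its mRNA was at 0 to 3.54 CPM (0 to 8 reads). It reaches the deposited value of 16 only in the 2 RPF LPS libraries, so to be listed at all it had to be high there, and its differences are no test.

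The interleukin 1 list had median mRNA differences from basal of 0.60 after LPS and 0.44 with LPS + DEX (all genes, 0.26 and 0.28). Its TE medians were -0.93 and -0.83 (all genes, -0.34 in both). Its footprint medians were -0.11 and -0.16 (all genes, -0.07 and -0.05). None of these medians was tested. In mRNA the calls in this list were about as frequent as over all genes. After LPS 1 of 11 rose (all genes, 9.03%), the adaptor kinase Irak1 (0.61 ± 0.15). With LPS + DEX against basal 2 of 11 rose (all genes, 18.5%): mRNA of the inflammasome sensor Nlrp3 rose by 2.06 ± 0.33, from 63.7 and 85.5 CPM to 326 and 296 CPM, and that of the kinase Irak2 by 1.15 ± 0.28. Their footprints did not pass (Nlrp3 59.5 and 65.8 CPM in basal cells, 79.2 and 86.7 CPM with LPS + DEX), and their TE fell by 1.66 ± 0.38 and 1.26 ± 0.37 (2 of 13 lower, all genes 12.2%). Over all genes, the 2106 mRNA calls of this comparison became 1 without mRNA LPS + DEX replicate 1 and 919 without replicate 2.

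Around Ptgs2, 12 of 25 genes of prostanoid and eicosanoid synthesis and signalling are listed, without the other cyclooxygenase gene Ptgs1 and the inducible synthase Ptges. In footprints 1 of 11 rose after LPS (all genes, 3.3%), and between LPS + DEX and LPS 1 was higher and 1 lower (all genes, 3.14% and 3.55%). Those of Ptges3, a cochaperone also described as a cytosolic prostaglandin E synthase, rose after LPS by 0.49 ± 0.12 and were lower with LPS + DEX than with LPS (-0.43 ± 0.12, limma, adjusted p = 0.0486). Footprints of Pla2g4a, the phospholipase that releases arachidonic acid, were higher with LPS + DEX than with LPS, at 473 and 494 against 359 and 328 CPM (0.49 ± 0.10, limma, adjusted p = 0.00813). In mRNA 1 of 12 rose after LPS (all genes, 9.03%) and 2 of 12 with LPS + DEX against basal (all genes, 18.5%). The prostaglandin E2 receptor gene Ptger1 rose after LPS (1.37 ± 0.31) and with LPS + DEX (1.59 ± 0.31), with at most 2 footprint reads in any library, and the prostanoid exporter Abcc4 rose with LPS + DEX (0.90 ± 0.24, against basal). The list medians lay near those of all genes, at 0.23 and 0.26 for mRNA and -0.02 and -0.07 for footprints after LPS.

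**Figure D5:**
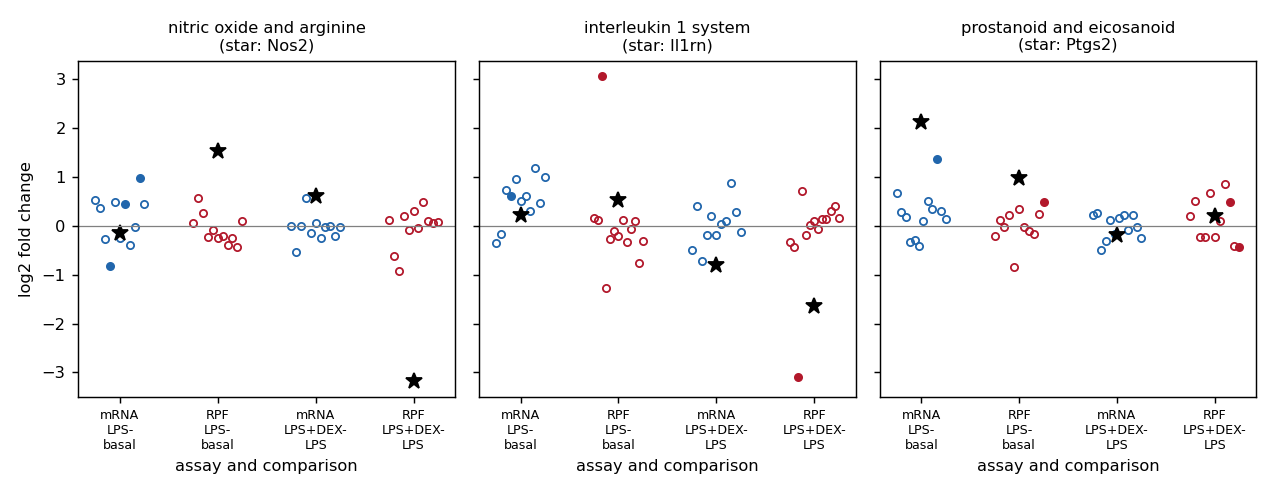
Log2 fold change (y axis) of each listed gene of the 3 pathway lists (circles, filled where limma's adjusted p is under 0.05) in mRNA (blue) and footprints (red) for LPS against basal and LPS + DEX against LPS (x axis), with a star for Nos2, Il1rn or Ptgs2. The stars of Nos2 (-3.18) and Il1rn (-1.65) in footprints of LPS + DEX against LPS lie below all open circles of their lists. Both genes were chosen on this contrast, so that place follows in part from the choice. The filled circle of the interleukin 1 list in that column is Il18bp.

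For each gene, the genes with the most similar profile were sought by the Euclidean distance between log2 values over the 6 libraries of an assay, each centred on its mean. In footprints Vcam1, a cell adhesion molecule, was nearest to Nos2 (distance 0.50, against a median of 3.40 over 8846 genes), with means of 5.79, 24.3 and 1.7 CPM in basal, LPS and LPS + DEX cells, the last at the level of 3 reads. Like Il18bp, Vcam1 is listed through the 2 RPF LPS libraries alone. The next were the mitochondrially encoded complex I subunits mt-Nd1 (0.96) and mt-Nd6 (1.06), Csmd2 (1.02) and Spata31d1a (1.05). Csmd2 averaged 5.79, 26.1 and 2.85 CPM and Spata31d1a 11.8, 19.4 and 1.7 CPM in the same order of treatments. Through which libraries Csmd2 and Spata31d1a are listed was not checked, so their likeness to Nos2 may follow in part from the listing. The mitochondrial genes lay higher, with means of 27.3 CPM or more. Il1rn itself came at place 57 (1.96, Pearson r 0.89 over 6 libraries), while Ptgs2 came at place 7134 (3.70, r -0.11). Counted from Il1rn, however, Nos2 came at place 5869, its distance of 1.96 lying beyond the median of 1.82. Nos2 and Il1rn were both chosen on footprints of LPS + DEX against LPS, so a part of their likeness was selected.

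Nearest to Il1rn in footprints were Dolpp1, Ttn, Armc8, the thymosin Tmsb10 and Agpat4, at distances of 0.47 to 0.60, where the median was 1.82. Nearest to Ptgs2 were Gm47283, the pseudogene Rpl23a-ps1, the interferon-inducible GTPase Irgm1, Brpf3 and the cell cycle inhibitor Cdkn1b, at 0.24 to 0.43, where the median was 1.47. Footprints of a pseudogene may be shared with its parent gene, which makes Rpl23a-ps1 uncertain. In mRNA the genes nearest to Ptgs2 were Rhob, a small GTPase with means of 18.4, 79.7 and 71.4 CPM, and then Mbd6, Mief1, Cbx6 and Lzts2 (0.31 to 0.52, median 2.13 over 9276 genes). In mRNA Derl2, Cd84, Nt5c3, AK157302 and Irak1bp1 were nearest to Il1rn (0.48 to 0.59), and Bcl7a, Pqlc3, Lzts3, Wrnip1 and Mpg to Nos2 (0.31 to 0.40). All these points share the same 6 libraries and their depths.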

How the data were processed

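mRNA and RPF libraries (6 each) were analysed. The deposited values are CPM + 1 per Ensembl gene, a unit read from the values: the lowest is 1, and after subtracting 1 all values (100%) are whole multiples of 1 read, with a tolerance of 0.1 read. The authors' aligner, counting method, genome build and annotation were not given in the sources used here. The positions printed are those of RefSeq promoter windows, not of the features counted. Symbols matched 9521 of 9621 identifiers.

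Genes entered a fit with the CPM of 10 reads (at the median depth) reached in 2 or more libraries and with a sum of 15 or more reads. limma-trend (limma 3.58.1, R 4.3.3) was fitted to log2(CPM + 1), with the 3 treatments of an assay together and TE over all 12 libraries. This scale understates changes of low genes. P values are two-sided with Benjamini-Hochberg adjustment over all genes tested, and the threshold was an adjusted p of 0.05. Poisson intervals cover counting error only, since no molecular identifiers are described.

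The 3 genes and the gene lists were chosen with earlier results of these data known. For each gene, comparisons planned as tests that share libraries and assay with the results it was chosen on are given as descriptions. Genes named from lists passed the test (at most 4 per list and comparison with the largest change), and the 5 nearest profiles per gene and assay were named. Alternatives were median-of-ratios scaling, log2(CPM + 2), no filter, limma-voom on recovered reads, only the groups compared, a replicate block, and leaving out each library.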

Additional observations from a re-analysis of the deposited data

How the results depend on the processing

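Of the 305 alternative values of the 3 genes, 245 kept their direction and side of the threshold or moved by less than 1 replicate SD, 39 kept direction while limma's adjusted p rose above 0.05, 16 moved further and 5 changed sign. The cause was not tested. A fit without 1 library has fewer residual degrees of freedom and takes a lone library to vary like the other groups.

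For footprints of Nos2 and Il1rn, mRNA of Ptgs2 and TE this p describes the fit and is no test. It rose above 0.05 for footprints after LPS against basal without a filter or with only the groups compared (Nos2 1.53, Il1rn 0.53, Ptgs2 0.97) and for Ptgs2 with limma-voom (1.01, adjusted p = 0.0535), for Nos2 footprints with LPS + DEX against basal in those 2 settings (-1.65) and with limma-voom (-1.78), for Ptgs2 footprints there without a filter (1.16), and for Nos2 TE there (-2.12 with only the groups compared, -1.83 with median-of-ratios scaling, -1.87 with log2(CPM + 2), -2.29 with limma-voom). Values that moved were Ptgs2 mRNA after LPS (1.90 with median-of-ratios scaling, 1.93 with log2(CPM + 2), 2.29 with limma-voom), Ptgs2 TE after LPS (-0.90 with median-of-ratios scaling) and Nos2 TE for LPS + DEX against LPS (-4.17 with limma-voom). Il1rn mRNA after LPS turned to -0.04 with median-of-ratios scaling.

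Leaving out 1 library gave, for LPS against basal, footprints of 0.99 to 2.06 (Nos2), 0.36 to 0.71 (Il1rn) and 0.76 to 1.18 (Ptgs2), mRNA of -0.44 to 0.17 (Nos2) and -0.39 to 0.83 (Il1rn), and TE of 1.13 to 2.20 (Nos2), -0.30 to 0.92 (Il1rn) and -1.36 to -0.94 (Ptgs2). For LPS + DEX against basal it gave footprints of -2.19 to -1.12 (Nos2) and 1.07 to 1.26 (Ptgs2), Ptgs2 mRNA of 1.85 to 2.01 and Nos2 TE of -2.66 to -1.58. For LPS + DEX against LPS it gave Ptgs2 footprints of -0.02 to 0.40 and TE of -4.20 to -3.37 (Nos2), -1.45 to -0.23 (Il1rn) and 0.17 to 0.59 (Ptgs2).

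The labels number the replicates alike in every group without saying that a number marks a shared culture or day. Deviations of same-numbered libraries correlated at -0.16 to 0.097 over genes, so no shared deviation was seen. Counting error lowers such correlations, so they do not settle whether the numbers pair the samples. With the replicate block, limma's p of Nos2 rose above 0.05 in footprints of LPS (1.53, adjusted p = 0.0525) and of LPS + DEX (-1.65, adjusted p = 0.0516) against basal and in TE (-2.12, adjusted p = 0.0753), the Ptgs2 footprint calls held, and the genes called in mRNA after LPS went from 994 to 390.

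Counts over all genes moved by more than 1.5 times as follows. Footprint calls after LPS went from 674 to 281 (no filter), 321 (only the groups compared) and 354 or 385 (without either LPS library), and those of LPS + DEX against LPS from 592 to 273 (no filter) and 94 to 289 (without 1 library). Those of LPS + DEX against basal went from 410 to 132 (no filter), 619 (limma-voom) and 97 or 107 (without either LPS + DEX library). mRNA calls after LPS went from 994 to 501 (median-of-ratios scaling), 464 (limma-voom), 399 (only the groups compared), 13 or 7 (without LPS replicate 1 or 2) and 2178 (without basal replicate 2). Those of LPS + DEX against basal went from 2106 to 1 or 919 (without LPS + DEX replicate 1 or 2), and those of LPS + DEX against LPS from 0 to 6 with only the groups compared. TE calls of LPS + DEX against basal went from 1401 to 863 (median-of-ratios scaling) and to 546 to 836 without 1 library.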
